A study of Mus musculus with 10 samples.

Results

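Core clock and clock output genes were described in epithelial crypts of the mouse distal colon: Arntl, Npas2, Clock, Per1, Per2, Per3, Cry1, Nr1d1, Nr1d2 and Dbp, 10 of the 23364 genes in the deposited tables. They were chosen by name with their group means in these tables already known, so their levels, folds and calls are given as a description and no p-value is attached to them. RNA came from crypts shaken off the colon wall in EDTA, and the 10 libraries form 3 groups. The AOM+DSS group (3 libraries) held crypts of mice that received azoxymethane, a DNA-alkylating carcinogen, followed by dextran sulfate sodium, and the submitters' design text calls this condition cancer. The DSS group (4 libraries) held crypts of mice that received dextran sulfate sodium alone, an agent that injures the mucosa and causes colitis. The control group (3 libraries) was untreated. The sources used here do not give the strain, sex or age of the mice, the doses, the days of treatment or the hour at which tissue was taken. Nothing in the labels says that each library is a different animal, and p-values therefore reflect the spread between these libraries alone, which may be technical.

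The deposited tables hold mean normalized read counts per group, that is reads divided by a size factor for the depth of each library. From these means the whole reads of each library could be worked out for every member except Clock in DSS, where only the group mean is known. Within each group the libraries are lettered from the deepest (a) down, and no letter can be matched to a replicate number. Size factors ran from 0.905 to 1.34 in AOM+DSS, from 0.645 to 1.27 in DSS and from 0.944 to 1.04 in control. The defining epithelial markers Epcam and Vil1 averaged 28957 and 17710 normalized reads in AOM+DSS, 28156 and 19352 in DSS, and 24719 and 16407 in control, so the labelled epithelium was present in every group.

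The circadian clock of mammalian cells is a feedback loop of transcription. ARNTL (also called BMAL1) pairs with CLOCK or its relative NPAS2 and activates genes that carry E-boxes, among them the Per, Cry, Nr1d and Dbp genes, and the PER and CRY proteins then inhibit that pair. The nuclear receptors NR1D1 and NR1D2 (REV-ERB alpha and beta) repress Arntl, Npas2 and Cry1 through ROR elements, and DBP with its relatives TEF and HLF activates genes that carry D-boxes, where NFIL3 represses. The mouse colon epithelium has a clock of this kind, so the levels of most of these genes there vary with the time of day.

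Start sites of 9 of the 10 members, in 13 windows, were matched by symbol in RefSeq promoter windows of the GRCm38.p6 build, each running from 250 bases before the start to 50 after it. No window was matched for Per2. The windows of 5 members that hold the letters of an E-box, ROR element or D-box are shown, as these elements are the links of the loop described above. The capitals mark the E-box CACGTG, its variant CACGTT, a ROR element (TAGGTCA or TGGGTCA) or a D-box (TTANGTAA), searched on both strands, and a match on the other strand stands as its complement. The 250 bases before the start are printed, except for Arntl, where 30 bases around a match after the start are printed.
Arntl (chr7:113207530-113207559, plus strand): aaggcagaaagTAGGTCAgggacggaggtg
Cry1 (chr10:85185055-85185304, minus strand): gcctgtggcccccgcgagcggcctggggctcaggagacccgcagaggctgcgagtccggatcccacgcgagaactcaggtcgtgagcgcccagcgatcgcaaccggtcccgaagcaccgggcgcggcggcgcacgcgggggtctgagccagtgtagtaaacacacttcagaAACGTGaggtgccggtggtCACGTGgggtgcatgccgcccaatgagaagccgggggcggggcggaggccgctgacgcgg
Per1 (chr11:69098699-69098948, plus strand): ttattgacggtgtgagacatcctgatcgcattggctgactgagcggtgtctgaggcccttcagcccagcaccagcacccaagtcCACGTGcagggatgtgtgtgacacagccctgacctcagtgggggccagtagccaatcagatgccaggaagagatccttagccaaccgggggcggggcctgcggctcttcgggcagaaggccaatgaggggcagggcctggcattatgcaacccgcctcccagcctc
Per3 (chr4:151044666-151044915, minus strand): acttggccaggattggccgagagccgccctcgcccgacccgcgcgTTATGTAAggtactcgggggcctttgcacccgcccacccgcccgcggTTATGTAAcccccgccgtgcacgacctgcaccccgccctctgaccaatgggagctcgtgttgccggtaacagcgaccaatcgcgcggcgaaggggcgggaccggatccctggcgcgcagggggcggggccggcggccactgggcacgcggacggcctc
Nr1d1 (chr11:98775378-98775627, minus strand): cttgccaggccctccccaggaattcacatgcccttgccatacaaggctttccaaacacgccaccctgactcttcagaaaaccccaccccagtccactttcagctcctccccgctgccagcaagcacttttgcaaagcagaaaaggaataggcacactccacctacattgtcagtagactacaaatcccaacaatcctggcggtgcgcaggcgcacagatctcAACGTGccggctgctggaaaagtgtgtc
The ROR element of Arntl began at base 31 from one of its annotated starts. Cry1 held an E-box 60 bases and a variant 79 bases before its start, and Per1 an E-box 166 bases before one of its starts. Per3 held D-boxes 205 and 158 bases before its start, and Nr1d1 a variant E-box 28 bases before its start. The windows of Npas2, Clock, Nr1d2 and Dbp held none of these letters. Of all 32851 windows, 7.15% held the E-box, 4.68% its variant, 6.45% a ROR element and 2.32% a D-box. A match describes the letters in these windows and is no measure of binding.

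In DSS the activators Arntl and Npas2 and the repressor Cry1 were higher than in control. Nr1d1, Nr1d2, Per3 and Dbp were lower, Dbp by the largest factor of the 10. Whether tissue of the groups was taken at the same hour is not known. The part of the hour in any difference between groups given here was not tested. By the authors' DESeq calls (adjusted p under 0.05), 3 members were higher and 4 lower in DSS than in control, and Clock, Per1 and Per2 were not called. Of all 18099 genes tested in that comparison, 2.61% were called higher and 1.78% lower, and as the members were selected on the same means nothing is read from these shares. In AOM+DSS, 3 members were again called higher and 4 lower than in control, against 5.54% higher and 3.35% lower of 18334 genes. Both comparisons use the same control libraries, so their values are set side by side and not counted as separate evidence.

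**Figure D1:**
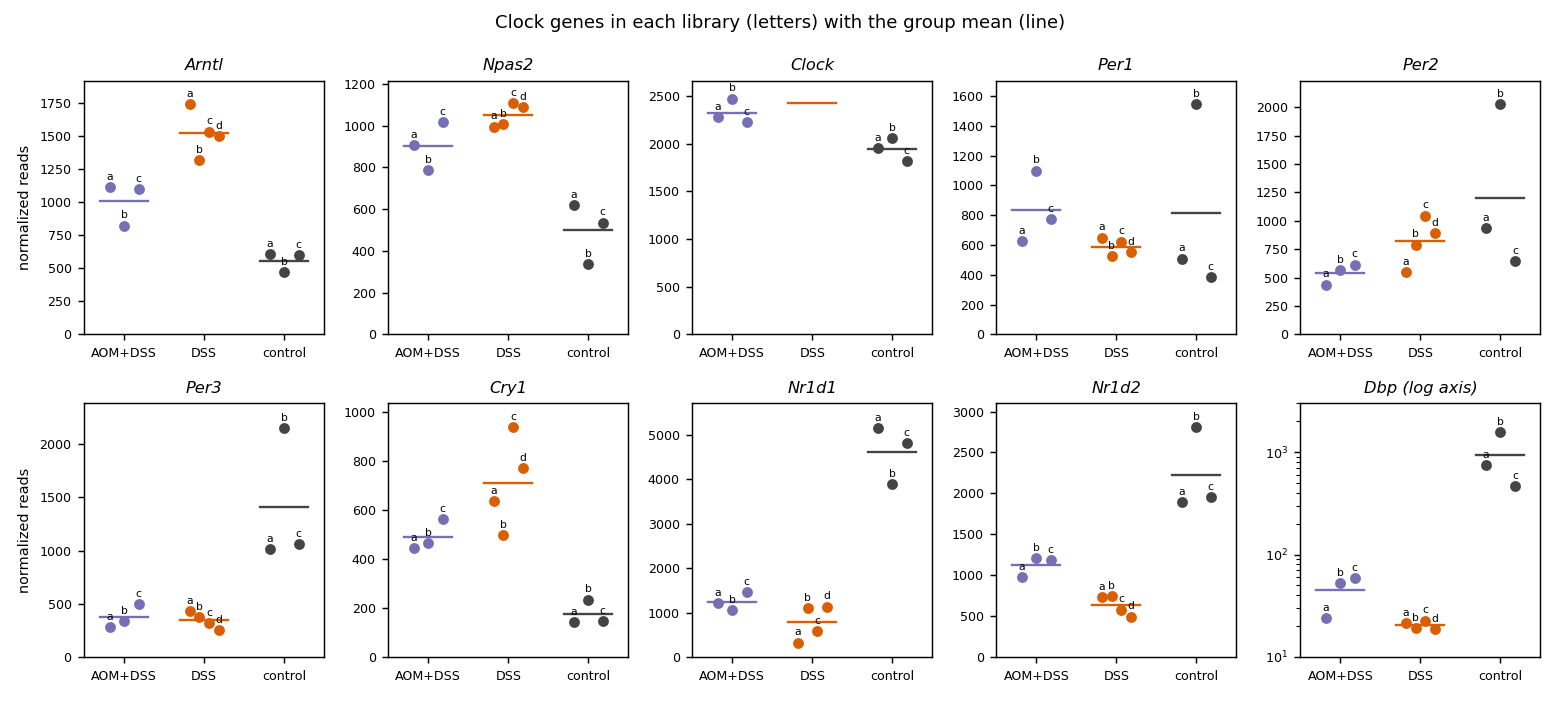
Normalized reads (y axis, linear from 0; log axis for Dbp) of each member in each library (points with letters) of the AOM+DSS, DSS and control groups, with the group mean as a line (the only value known for Clock in DSS). Arntl, Npas2 and Cry1 lie above all control libraries in every treated library, and Per3, Nr1d1, Nr1d2 and Dbp below.

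Arntl, which encodes the partner common to both activating pairs, had 1118, 825 and 1101 normalized reads in AOM+DSS libraries a to c, 1748, 1318, 1536 and 1501 in DSS libraries a to d, and 607, 475 and 598 in control libraries a to c. The 3 groups did not overlap, with DSS highest and control lowest. The mean was 2.72-fold that of control in DSS (1526 ± 176 in DSS and 560 ± 73.9 in control; SD, n = 4 and 3) and 1.81-fold in AOM+DSS (1015 ± 165, n = 3). Npas2, whose product can stand in for CLOCK, had 908, 788 and 1016 normalized reads in AOM+DSS, 994, 1006, 1106 and 1089 in DSS, and 621, 338 and 535 in control. Every treated library lay above every control library, and the treated groups overlapped each other. The Npas2 mean was 2.11-fold that of control in DSS and 1.82-fold in AOM+DSS. Clock averaged 2327 ± 130 normalized reads in AOM+DSS and 1942 ± 120 in control (SD, n = 3 each), a 1.20-fold ratio, and its DSS mean of 2426 was 1.25-fold the control mean. Neither Clock difference was called, although the AOM+DSS libraries (2228 to 2475) lay above the control libraries (1818 to 2056).

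The Per genes, whose products inhibit the activators, differed among themselves. Per3, the member with D-boxes in its window, had 282, 335 and 494 normalized reads in AOM+DSS, 432, 374, 320 and 251 in DSS, and 1016, 2153 and 1057 in control. The highest treated library, at 494, stood well below the lowest control library, at 1016, and the treated groups overlapped. The Per3 mean was 3.81-fold lower in AOM+DSS and 4.09-fold lower in DSS than in control. Per2 had 438, 564 and 614 normalized reads in AOM+DSS, 550, 791, 1045 and 895 in DSS, and 936, 2025 and 647 in control. The AOM+DSS libraries all lay below the control libraries, those of DSS overlapped them, and neither difference was called. Per1 had 625, 1100 and 774 normalized reads in AOM+DSS, 650, 528, 623 and 554 in DSS, and 510, 1547 and 383 in control. Control library b was the highest of all 10 libraries for Per1 and Per2, and the treated libraries overlapped the control range of Per1. The Per1 mean was 1.02-fold that of control in AOM+DSS and 0.724-fold in DSS, and without control library b these ratios were 1.87 and 1.32, with every treated library then above both control libraries.

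Cry1, another inhibitor of the activators, whose window above holds both an E-box and its variant, differed from control in the opposite direction to Per3. It had 442, 466 and 563 normalized reads in AOM+DSS, 636, 498, 936 and 771 in DSS, and 143, 234 and 145 in control. All treated libraries lay above all control libraries. The mean was 2.82-fold that of control in AOM+DSS (491 ± 64.2 and 174 ± 52.0 normalized reads; SD, n = 3 each) and 4.08-fold in DSS (710 ± 187, n = 4). The DSS libraries spread 1.88-fold from lowest to highest, those of AOM+DSS 1.27-fold.

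Both REV-ERB receptors, the repressors of Arntl and Cry1, were lower in the treated groups. Nr1d1 had 1217, 1051 and 1465 normalized reads in AOM+DSS, 320, 1100, 583 and 1131 in DSS, and 5149, 3897 and 4820 in control. No treated library reached the control range, and the DSS libraries differed 3.53-fold among themselves, the widest spread in DSS of the 9 members with recovered reads in every library. The Nr1d1 mean was 3.71-fold lower in AOM+DSS and 5.90-fold lower in DSS than in control. The last exons of Nr1d1 share 263 of its 3077 exonic bases with Thra on the other strand (GENCODE M21), and the kit does not mark strand, so reads from those bases cannot be told apart. Thra averaged 724 normalized reads in AOM+DSS, 669 in DSS and 597 in control. Nr1d2 had 979, 1208 and 1181 normalized reads in AOM+DSS, 726, 746, 579 and 492 in DSS, and 1893, 2809 and 1956 in control. Its 3 groups did not overlap, with DSS lowest and control highest. The Nr1d2 mean was 1.98-fold lower in AOM+DSS (1123 ± 125 and 2219 ± 511 normalized reads; SD, n = 3 each) and 3.49-fold lower in DSS (636 ± 121, n = 4).

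Dbp, the D-box activator that the activating pair drives directly, stood farthest below control of the 10 members in both treated groups. It had 23.8, 52.9 and 58.6 normalized reads in AOM+DSS, 21.3, 19.0, 22.7 and 18.6 in DSS, and 742, 1584 and 464 in control. The lowest control library held more than the sum of all 7 treated libraries, and every AOM+DSS library lay above every DSS library. The Dbp mean was 20.6-fold lower in AOM+DSS and 45.6-fold lower in DSS than in control. One library sets part of that size: without control library b the ratios were 13.4-fold and 29.6-fold. Fewer cells that express a gene and less RNA per cell cannot be told apart in bulk samples such as these. Dbp shares 539 of its 2993 exonic bases with Sphk2 on the other strand, whose mean was 1567 normalized reads in AOM+DSS, 1613 in DSS and 2740 in control, and how the shared bases were counted was not found in the labels or headers.

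**Figure D2:**
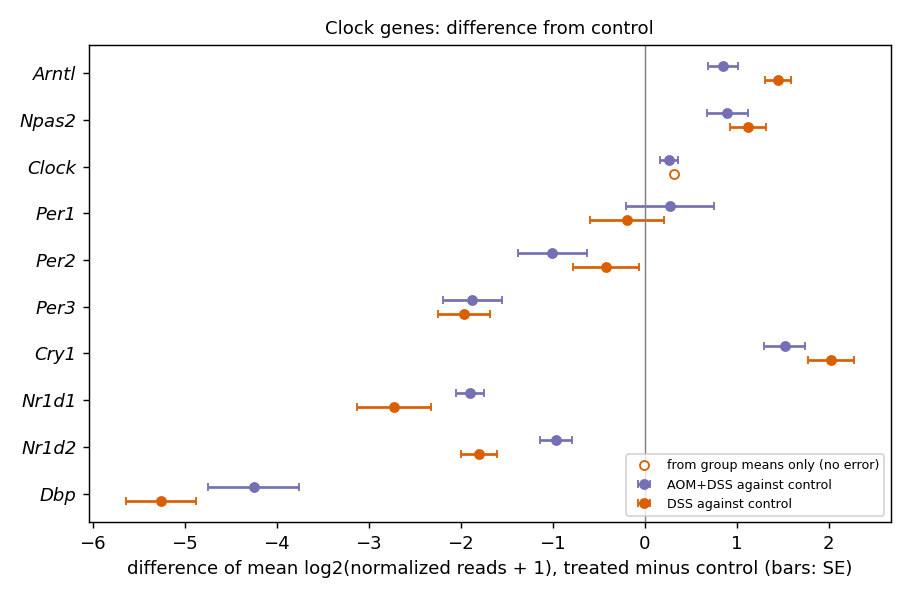
Difference of mean log2(normalized reads + 1) between each treated group and control (x axis; points with the limma SE as bars) for each member (rows), with AOM+DSS above DSS; the open point for Clock in DSS is the log2 ratio of the group means. Dbp stands farthest left at -4.25 in AOM+DSS and -5.26 in DSS, and Cry1 farthest right at 1.52 and 2.02.

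On the scale of mean log2(normalized reads + 1), limma gives each gene its own SE, which also draws on the spread of all genes. The difference from control was -4.25 ± 0.493 in AOM+DSS and -5.26 ± 0.380 in DSS for Dbp, and 1.52 ± 0.224 and 2.02 ± 0.252 for Cry1. For Per1 in AOM+DSS the SE, 0.479, exceeded the difference itself, 0.27. The number of limma calls varied widely with the library left out, and the cause was not tested. Fits of all libraries called 859 genes for DSS and 3146 for AOM+DSS. With 1 library left out in turn, limma over all genes called 48 to 729 genes for DSS and 7 to 3709 for AOM+DSS. Among these were 2 to 6 members for DSS and 0 to 7 for AOM+DSS. For DSS, Arntl and Dbp were called in all 7 such fits. Cry1 and Nr1d2 were not called without control library a or c, Nr1d1 without control library a, b or c, and Per3 without control library a or c or DSS library a, b or d. Npas2 was called in 1 of the 7 fits, that without control library b. For AOM+DSS, Arntl, Per3, Cry1, Nr1d2 and Dbp were each called in 2 of 6 fits, and not without control library a or c or AOM+DSS library a or b. Nr1d1 was called in 4 of 6, and not without control library c or AOM+DSS library a, and Npas2 in 1 of 6, that without control library b. In fits restricted to genes averaging at least 50 normalized reads, a restriction chosen after the data were seen, 6 to 7 members were called for DSS and 4 to 8 for AOM+DSS. Over all genes fitted there, 144 to 906 were called for DSS and 525 to 3988 for AOM+DSS. The direction of these 7 members was kept in each fit of both kinds. Their treated and control libraries did not overlap, so leaving a library out could not reverse it, and nothing is read from this.

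The separation of the libraries can be described without a model. The members were selected on their group means, so nothing is read from the shares that follow. For DSS against control, 7 of the 9 members with recovered reads in every library did not overlap, where 20.0% of all genes did not, and Per1 and Per2 overlapped. For AOM+DSS against control, 9 of 10 did not overlap, against 38.5% of all genes, and Per1 overlapped. Without control library b the counts were 8 and 10, and leaving a library out can only keep or raise them.

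Ratios of 2 members within a library need no size factor, so they compare the members' balance directly. Each pair below joins a member higher than control with one lower, and neither overlapped control. Treated and control ratios therefore had to separate, and that separation adds nothing to the values above. Only differences of such a ratio between libraries are read, since the genes differ in length. The log2 ratio of Nr1d1 to Arntl reads was 0.12, 0.35 and 0.41 in AOM+DSS libraries a to c, -2.45, -0.26, -1.40 and -0.41 in DSS libraries a to d, and 3.08, 3.04 and 3.01 in control libraries a to c. The control libraries stood within 0.1 of each other on this scale, the groups did not overlap, and the DSS libraries spread most, with library a lowest. The mean was 0.29 ± 0.15 in AOM+DSS, -1.13 ± 1.01 in DSS and 3.04 ± 0.04 in control (SD, n = 3, 4 and 3). The log2 ratio of Dbp to Arntl averaged -4.58 ± 0.85 in AOM+DSS, -6.22 ± 0.14 in DSS and 0.55 ± 1.08 in control. Here the DSS libraries stood closest together and the control libraries spread most. The log2 ratio of Cry1 to Nr1d1 ran from -1.46 to -1.18 in AOM+DSS, from -1.14 to 0.99 in DSS and from -5.17 to -4.06 in control, with no overlap between treated and control libraries.

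**Figure D3:**
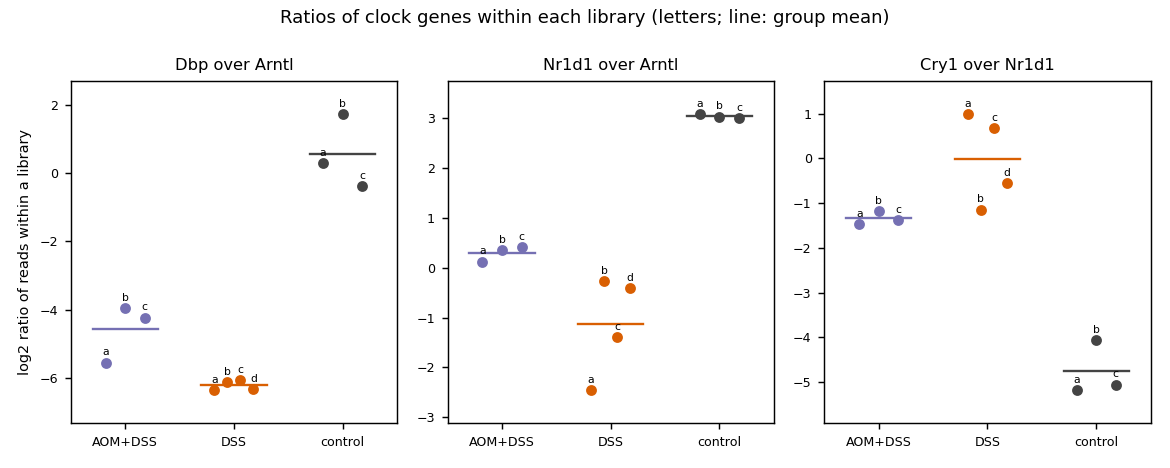
Log2 ratio of the reads of 2 members within each library (y axis; points with letters; line, group mean) for Dbp over Arntl, Nr1d1 over Arntl and Cry1 over Nr1d1 in the AOM+DSS, DSS and control groups. The 3 control libraries lie between 3.01 and 3.08 for Nr1d1 over Arntl, above all treated libraries, which follows from the separate levels of both genes.

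Control library b stood apart from a and c in most members. It was the highest control library for 7 members and the lowest for Arntl, Npas2 and Nr1d1. For 5 members (Per1, Per2, Per3, Cry1 and Dbp) it held at least 1.5 times the higher of the other two, against 4.62% of the 11359 genes with a control mean of at least 50. Per1 in library b was 3.46 times the mean of a and c, Dbp 2.63, Per2 2.56, Per3 2.08, Cry1 1.63 and Nr1d2 1.46, while Arntl was 0.788, Nr1d1 0.782 and Npas2 0.584. Among all those genes library b was the highest in 40.0% and the lowest in 43.5%. Library b also had the most reads of other cell types in its group. The summed level of 8 fibroblast and matrix markers was 1961 normalized reads in library b against 483 and 396 in a and c, that of 6 smooth muscle markers 1316 against 162 and 82.6, and that of 8 myeloid markers 2501 against 1335 and 1374. The part of these cells, or of the hour at which tissue was taken, in the members' values was not tested.

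**Figure D4:**
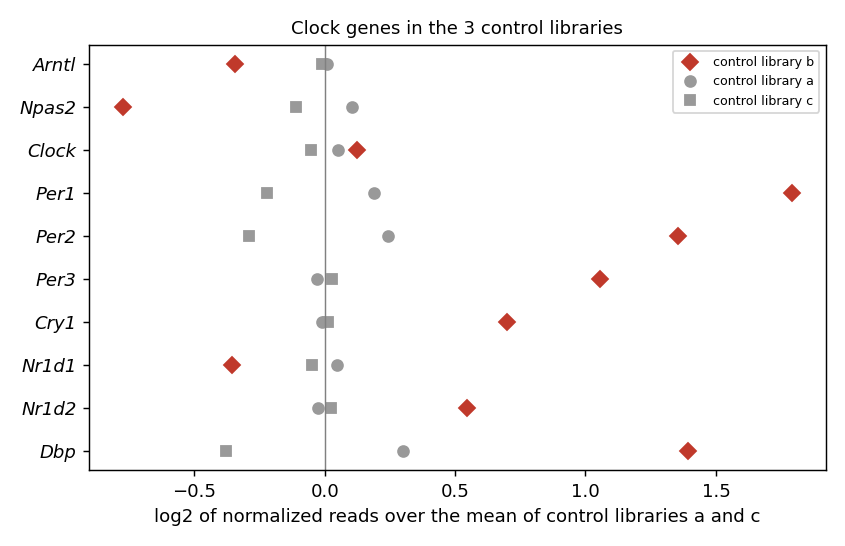
Log2 of normalized reads in each control library over the mean of control libraries a and c (x axis) for each member (rows); diamonds mark library b, circles a and squares c. Library b lies right of both others for 7 members and left of both for Arntl, Npas2 and Nr1d1.

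Markers of other cell types moved with the groups as well. The 8 myeloid markers summed to 6172 to 16858 normalized reads in AOM+DSS, 2596 to 8317 in DSS and 1335 to 2501 in control. Of 6 B and plasma cell markers, the 5 recovered in every library summed to 208 to 858 in AOM+DSS, 1681 to 8432 in DSS and 114 to 866 in control. The group means of all 6 summed to 2907 in AOM+DSS, 5841 in DSS and 1135 in control, so the marker left out changes the picture for AOM+DSS. The 5 T cell markers summed to 317 to 481 in AOM+DSS, 248 to 1860 in DSS and 73.1 to 329 in control. The 8 fibroblast and matrix markers summed to 366 to 3610 in AOM+DSS, 275 to 470 in DSS and 396 to 1961 in control, and the 6 smooth muscle markers to 200 to 11938, 133 to 186 and 82.6 to 1316, with AOM+DSS library c highest. None of the defining markers Col1a1, Myh11, Itgam, Cd79a and Cd3e was at 0 in any library. Without AOM+DSS library c, 9 members did not overlap between AOM+DSS and control. Leaving a library out cannot create overlap, so this count bears on no cell type. The part of other cells in the differences was not tested.

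Between the treatments, AOM+DSS against DSS, 3 of the 9 members with recovered reads in every library did not overlap, against 12.2% of all genes. Arntl was lower in AOM+DSS, at 0.665-fold the DSS mean, while Nr1d2 and Dbp were higher, at 1.77-fold and 2.21-fold. Limma called 1 member, Nr1d2, as higher, where 2.27% of 15811 genes were called higher and 0.0822% lower, but that call was lost whenever any 1 library was left out. The difference of mean log2 values was 0.83 ± 0.175 for Nr1d2, 1.01 ± 0.425 for Dbp, 0.83 ± 0.404 for Nr1d1, -0.59 ± 0.152 for Arntl, -0.50 ± 0.215 for Cry1, -0.58 ± 0.225 for Per2 and 0.09 ± 0.246 for Per3 (SE). Without AOM+DSS library c, 5 members did not overlap, a count that can only stay or rise when a library is left out. The members were selected on their group means, so nothing is read from these shares.

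The rest of the pathway was taken from a list of 25 further clock genes, clock modifiers, D-box factors and known clock outputs. In DSS against control the authors' DESeq test called 2 of the 25 higher (Nfil3 and Alas1) and 3 lower (Tef, Timeless and Wee1), beside the shares of 2.61% and 1.78% over all genes. In AOM+DSS against control it called 3 higher (Nfil3, Alas1 and Csnk1e) and 2 lower (Tef among them), beside 5.54% and 3.35%. The median log2 fold of the 25 was -0.01 in DSS and 0.21 in AOM+DSS, beside 0.02 over all genes with reads in both groups in each comparison. Between AOM+DSS and DSS limma called 0 of the 20 that could be fitted, and 4 had an unadjusted p under 0.05. By limma on recovered reads, 6 of 20 were called in DSS and 10 of 25 in AOM+DSS against control. Over all genes limma called 859 of 15530 in DSS and 3146 of 18210 in AOM+DSS, a larger share than the DESeq test. Rora, Rorb, Hlf, Fbxl21 and Bhlhe41 had means under 50 normalized reads in every group.

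**Figure D5:**
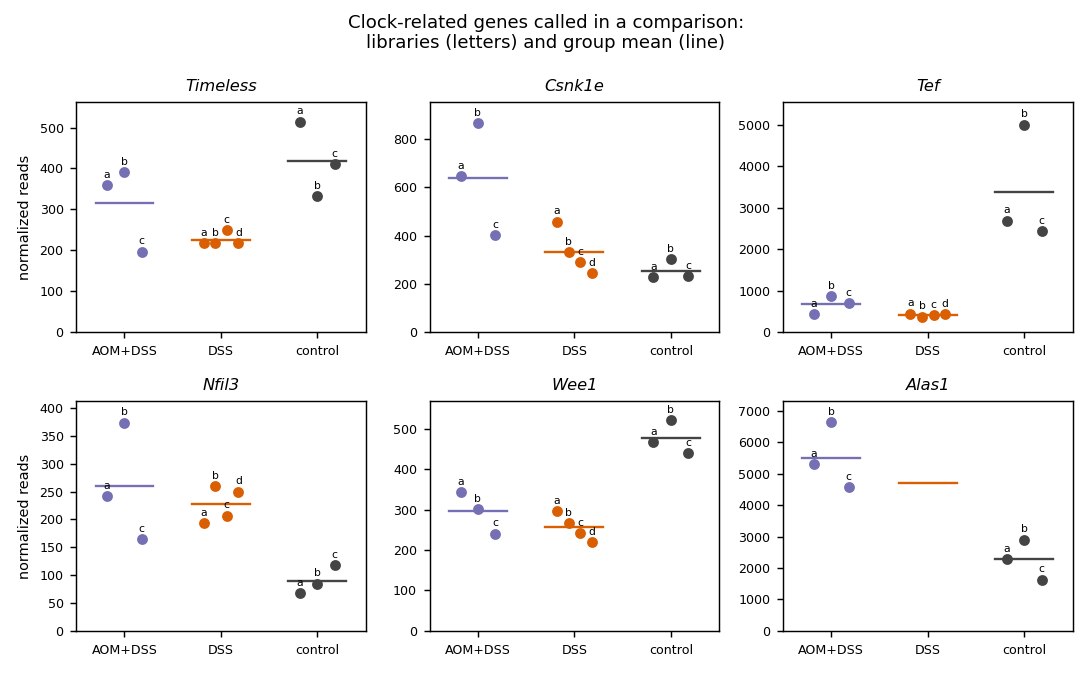
Normalized reads (y axis, linear from 0) of 6 further clock-related genes called in a comparison with control, in each library (points with letters) of the AOM+DSS, DSS and control groups, with the group mean as a line (the only value known for Alas1 in DSS). All treated libraries lie below the control libraries for Tef and Wee1 and above them for Nfil3.

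Of the D-box factors, Tef, a relative of Dbp, was lower in the treated groups and Nfil3, which represses at the same element, was higher. Tef had 434, 863 and 699 normalized reads in AOM+DSS, 446, 373, 415 and 433 in DSS, and 2689, 5007 and 2432 in control. Every treated library lay far below every control library. In the authors' deposited table the Tef log2 fold was -2.34 in AOM+DSS (DESeq adjusted p = 0.0133) and -3.02 in DSS (DESeq adjusted p = 0.000339), and limma over all genes called it for DSS with any 1 library left out, but for AOM+DSS in 2 of 6 such fits, and not without control library a or c or AOM+DSS library a or b. Nfil3 had 242, 374 and 165 normalized reads in AOM+DSS, 194, 260, 207 and 250 in DSS, and 67.6, 84.9 and 118 in control. All treated libraries lay above all control libraries. In the authors' deposited table its log2 fold was 1.53 in AOM+DSS (DESeq adjusted p = 0.00135) and 1.34 in DSS (DESeq adjusted p = 0.0114). With 1 library left out, limma over all genes called Nfil3 for DSS in 1 of 7 fits, that without DSS library c. For AOM+DSS it did so in 1 of 6, that without AOM+DSS library c. Over genes averaging at least 50, a restriction chosen after the data were seen, such fits called Tef in 7 of 7 for DSS and 6 of 6 for AOM+DSS. Nfil3 was called there in 6 of 7 and 2 of 6.

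Among the core genes, Timeless, the mammalian relative of a fly clock gene that also acts at replication forks, had 359, 390 and 197 normalized reads in AOM+DSS, 218, 217, 249 and 217 in DSS, and 515, 332 and 410 in control. All DSS libraries lay below the control libraries and AOM+DSS overlapped both. The authors' deposited table gives Timeless a log2 fold of -0.89 in DSS (DESeq adjusted p = 0.0230) and -0.41 in AOM+DSS (DESeq adjusted p = 0.605), and with 1 library left out limma over all genes called it for DSS in 1 of 7 fits, that without control library b. Over genes averaging at least 50, such fits called Timeless for DSS in 5 of 7. The difference between AOM+DSS and DSS was not called for Timeless.

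Csnk1e, the gene of a casein kinase that marks PER proteins for turnover, had 647, 868 and 403 normalized reads in AOM+DSS, 458, 333, 289 and 244 in DSS, and 227, 303 and 231 in control. Only the AOM+DSS libraries lay wholly above control. The authors' deposited table gives it a log2 fold of 1.33 in AOM+DSS (DESeq adjusted p = 0.0191) and 0.38 in DSS (DESeq adjusted p = 0.787), and with 1 library left out limma over all genes called it for AOM+DSS in 1 of 6 fits, that without AOM+DSS library c. Of the outputs, Wee1, a kinase gene that holds back entry into mitosis, had 344, 302 and 241 normalized reads in AOM+DSS, 297, 266, 242 and 219 in DSS, and 467, 521 and 440 in control. All treated libraries were lower. In the authors' deposited table the Wee1 log2 fold was -0.69 in AOM+DSS (DESeq adjusted p = 0.132) and -0.89 in DSS (DESeq adjusted p = 0.0301), and limma over all genes lost the DSS call without control library a or c. Alas1, the first enzyme of heme synthesis, had 5315, 6654 and 4571 normalized reads in AOM+DSS and 2288, 2908 and 1629 in control, with a DSS mean of 4699. Each AOM+DSS library exceeded each control library. The authors' deposited table gives Alas1 a log2 fold of 1.28 in AOM+DSS (DESeq adjusted p = 4.2e-06) and 1.05 in DSS (DESeq adjusted p = 0.000848). Limma over all genes called Alas1 for AOM+DSS in 2 of 6 fits with 1 library left out. It was not called without control library a or c or AOM+DSS library a or b. Over genes averaging at least 50, such fits for AOM+DSS called Csnk1e in 3 of 6 and Alas1 in 5 of 6. Those for DSS called Wee1 in 6 of 7.

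Gm129 and Usp2 show how the test bears on this list, and both were chosen after their values were seen. Gm129, the older symbol of Ciart, which encodes a repressor of the activating pair, had 42.4, 72.8 and 57.4 normalized reads in AOM+DSS, 26.9, 24.7, 36.8 and 49.6 in DSS, and 169, 596 and 118 in control. Usp2, a clock-driven protease gene, had 141, 145 and 236 in AOM+DSS, 298, 148, 287 and 180 in DSS, and 595, 1629 and 412 in control. For both genes every treated library lay below every control library, and control library b was 4.16 and 3.24 times the mean of a and c. The authors' DESeq test called neither (adjusted p = 0.463 and 0.267 for Gm129, 0.202 and 0.388 for Usp2, in AOM+DSS and DSS), while limma called Gm129 in both comparisons (adjusted p = 0.0478 and 0.0212) and Usp2 in AOM+DSS (adjusted p = 0.0240; 0.0568 in DSS).

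The genes most like a member in pattern were found by the root mean square difference of log2(normalized reads + 1), each gene centred on its control mean, over all 10 libraries. The search covered 9324 genes recovered in every library and averaging at least 50. Genes resolved in DSS held 31.6% of the summed mean, so many genes with high DSS means were not compared. Nearest to Dbp were Foxp2 (0.974), Slc37a2 (1.05), Pcdh17 (1.53), Naaladl1 (1.74) and St8sia5 (1.79), where the median over the genes compared was 4.10. Even the nearest therefore differed from Dbp by about 1 log2 unit per library. Foxp2 averaged 15.0 normalized reads in AOM+DSS, 9.10 in DSS and 190 in control, and Slc37a2 499, 470 and 9150 in the same groups. Nearest to Arntl were Tmem139 (0.223), Zdhhc18 (0.270), Dhx58 (0.284), 1500009L16Rik (0.291) and Col11a2 (0.328), with a median of 1.11. These values were smaller than that of any gene compared with Dbp. The measure is not scaled to the size of a gene's own change, which was larger for Dbp, so the 2 sets of values are not compared. Tmem139 averaged 738 normalized reads in AOM+DSS, 910 in DSS and 376 in control, and Zdhhc18 1188, 1620 and 675.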

How the data were processed

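Poly(A) RNA of distal colon crypts was sequenced with an unstranded kit, per the labels' protocols. Reads were mapped to mm9 with TopHat2 2.0 and groups compared with DESeq, per the submitters' processing notes; counter and annotation: not given in the sources used here. The 2 deposited tables each list 23364 genes. Their signal values, per the file headers, are mean normalized read counts of each group, the fold is the ratio of treated to control mean, the log2 column its logarithm, and the p-values the authors' DESeq values with Benjamini-Hochberg adjustment. One header speaks of 4 AOM+DSS replicates, the labels of 3, and the overall means fit 3.

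The members and lists were chosen with earlier results of these data known. Whole reads per library were recovered where exactly 1 combination matched the printed values: 99.5% of genes in control, 89.0% in DSS and 99.9% in AOM+DSS. On simulated data 0 of 3000 genes per group were wrong. The tables hold no counts per sample, so the authors' adjusted p under 0.05 gave the calls against control. Limma 3.58.1 (R 4.3.3, trend) on log2(normalized reads + 1) compared AOM+DSS with DSS and served as alternative. In simulated data of that comparison (15811 genes) it found 43% of 2-fold and 99% of 4-fold changes. The simulation gave all genes of a group the same spread and changed only genes averaging at least 50. These shares therefore do not carry over to genes with wider spread or lower levels, such as Dbp in these groups. Named genes were all members, every listed clock-related gene called in a comparison, and the 5 genes nearest to Dbp and to Arntl. One gene that this rule selects is not reported here, although counts include it. Alternatives were other scalings, pseudocounts, a mean of at least 50, and left-out libraries. Promoter windows came from RefSeq, and overlaps from GENCODE M21, both on GRCm38, while the files use mm9.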

Additional observations from a re-analysis of the deposited data

Results flagged for a closer look

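Timeless in DSS had 1 library apart from the rest: library c held 249.2 normalized reads, and the others 217 to 218. The gap exceeded the critical value for 4 libraries. Of the 15 gene and group pairs of 4 libraries examined, chance alone flags about 1 in 20.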

How the results depend on the processing

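No paired analysis was possible because no recovered library could be matched to a replicate number. The calls against control numbered 794 for DSS and 1630 for AOM+DSS by the authors' test. For AOM+DSS limma called 3146 (2902 with 10 added, 2824 with a mean of at least 50, 3099 with median scaling), and 10, 10, 9 and 10 clock-related genes against 5. Between AOM+DSS and DSS limma called 372, with 127 at a mean of at least 50 and 1 without either pair of DSS libraries (a and b, or c and d); 0 members were then called in these 3 fits or with 10 added. Without DSS libraries a and b, 3 clock-related genes were called for DSS against control, and without c and d, 2, with 3 members.

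With 1 library left out, limma over all genes called 48 to 729 genes, 2 to 6 members and 1 to 5 clock-related genes for DSS against control. For AOM+DSS against control it called 7 to 3709, 0 to 7 and 0 to 9. Between the treatments it called 51 to 547, 0 and 0 to 1. Over genes with a mean of at least 50, chosen after the data were seen, the ranges were 144 to 906, 6 to 7 and 1 to 7 for DSS, 525 to 3988, 4 to 8 and 1 to 12 for AOM+DSS, and 7 to 290, 0 and 0 between the treatments. The cause was not tested. Without AOM+DSS library c, 5 members did not overlap between AOM+DSS and DSS, against 3, a count that can only stay or rise when a library is left out.

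Of 308 alternative values of the members' log2 folds, 304 moved by less than the spread between libraries, 4 moved more and 0 called folds changed sign. The groups did not overlap for any called fold, so leaving libraries out could not change its sign. Per1 without control library b stood at 0.40 for DSS and 0.90 for AOM+DSS. Cry1 was at -0.21 between AOM+DSS and DSS without DSS libraries c and d, and Nr1d2 at 1.07 without a and b. Median scaling shifted all genes by at most 0.02 on the log2 scale. In DSS, genes with means of 1383 normalized reads or more could not always be resolved to libraries, Clock among them, and the genes resolved held 31.6% of the summed mean.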
